A study of Arabidopsis thaliana with 11 samples.

Results

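Whole seedlings of Arabidopsis thaliana ecotype C24 with 4 chromosome sets were set against seedlings of the same ecotype with 2. The comparison rests on the 3 arrays whose titles carry the code for tetraploids and the 2 arrays whose titles carry the code for diploids, 5 of the 11 arrays of the study. Tetraploids had been made with colchicine, an inhibitor of spindle microtubules that doubles the chromosome number of a dividing cell. The other arrays were triploids from crosses of a tetraploid with a diploid, 3 with the title code TFE and 3 with the title code TME, which the labels do not spell out. All groups carried the stock code N906, were sampled as whole plants at stage 1.02 and grew on agar with Murashige and Skoog salts under days of 16 h at 21 °C and nights at 18 °C. The diploids are known as such only from the title code, and an array of this kind does not measure ploidy. The labels do not say whether the tetraploids descended from 1 treated plant or several.

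Genome doubling gives every gene of a nucleus the same additional dose, and polyploid plant cells are often larger than diploid ones. Each array was scaled to a common mean, so a change of total RNA per cell cannot be seen, and every difference below is relative to the rest of the array. In whole seedlings, fewer cells of a type and less RNA per cell cannot be told apart.

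RNA was read on Affymetrix ATH1 arrays, designed on the ecotype Columbia, in which each transcript has a set of short probes and receives a signal, a linear intensity in arbitrary units. Rank correlations over the probe sets kept were 0.960 to 0.967 within tetraploids, 0.966 between the diploid arrays and 0.942 to 0.964 across the groups. The actin 3′ to 5′ ratio, a sign of RNA quality and labelling, was 0.308 to 0.403 in tetraploids against 0.506 and 0.524 in diploids. The ratios therefore did not overlap (2-sided exact permutation test, p = 0.2, the smallest that 10 splits allow), while those of GAPDH (p = 0.6) and ubiquitin (p = 0.4) overlapped. The titles number the arrays group after group, so a handling order cannot be told apart from ploidy. Since the labels name no separate sowings or cultures, the p-values reflect how far these arrays scatter, and that scatter may be technical.

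More of the called transcripts were higher than lower in tetraploids. Of 15075 probe sets kept, 125 (0.829%) were called, 90 higher (0.597%) and 35 lower (0.232%) in tetraploids (limma, Benjamini-Hochberg adjusted p under 0.05, 2-sided). Among all probe sets kept, 51.1% were higher, with a median log2 difference of 0.007. The median absolute log2 difference was 1.14 among the called and 0.173 among all kept, and 318 of all kept (2.11%) differed by more than 1. At an unadjusted p under 0.05 there were 1270. In every called probe set the tetraploid arrays lay on one side of both diploid arrays, as in 4471 (29.7%) of all kept. Of the 125, 46 had 1 gene in the annotation, 37 of them higher and 9 lower. A further 77 had no gene name and 2 had several. The share called was 1.16% of probe sets without a name and 0.564% of those with 1 gene.

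These counts depended on single arrays. Without diploid replicate 1 or 2, 42 or 29 probe sets were called, and without tetraploid replicate 1 or 3, 62 or 51. With the actin ratio in the fit, 86 were called, 45 of them among the 125, and 19 of the 46 named genes kept their call. The part of the actin ratio in any result below was not tested further.

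**Figure D1:**
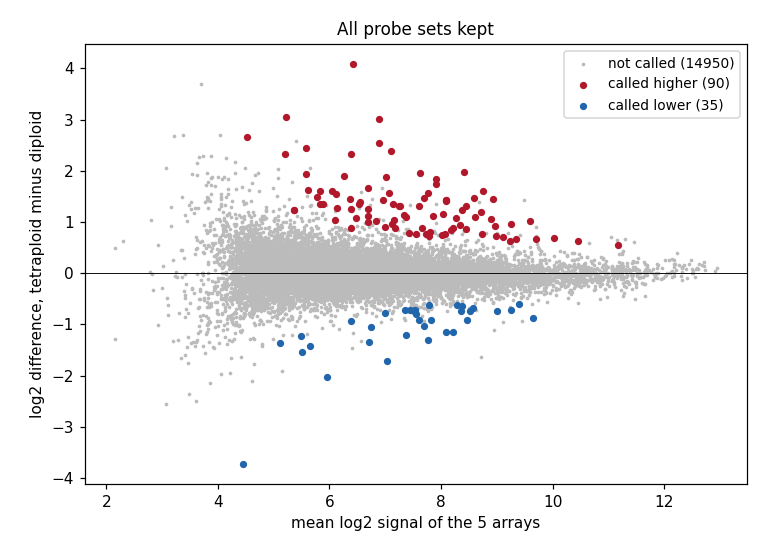
Log2 difference of tetraploids minus diploids (vertical axis) against the mean log2 signal of the 5 arrays (horizontal axis) for the 15075 probe sets kept, 1 point each. The 90 called higher (red) reach 4.09, and the 35 called lower (blue) reach -3.73.

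The 46 named genes were sorted by what their products are known to do. This grouping was made after the calls were seen and carries no test. Of all 46, 37 rose and 9 fell, so a group in which most genes rose is no result about that group. Genes for transcription factors and other regulators numbered 6, and all 6 rose. Stress-related genes numbered 9, of which 8 rose and 1 fell. In the group tied to light and dormancy 3 rose and 1 fell, in the DUF506 family 3 rose and 1 fell, and among S40-like genes 2 rose and 1 fell. Of 3 wall genes 1 rose and 2 fell, and of 8 genes of metabolism and transport 6 rose and 2 fell. Of the 9 others, 8 rose and 1 fell.

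Among regulators, ORA47 had the widest difference. It encodes an AP2/ERF transcription factor linked to the synthesis of jasmonate, the wound hormone. Its signal was 308, 216 and 281 in tetraploids, against 23.9 and 10.2 in diploids. Every tetraploid array lay far above both diploid arrays, which were below the percentile 40 of their array, so the size of the difference is uncertain. The log2 difference was 4.09 ± 0.36 (SE; limma, adjusted p = 8.17e-05) and lay between 3.12 and 4.70 in 17 other settings of the analysis, in all of which the call held. ORA47 was the single measured member of a list of 27 jasmonate and wound response loci, so the list gives no view of the pathway.

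AT3G56880 encodes a protein with a VQ motif, a short motif of plant proteins that bind WRKY transcription factors. It had 608, 446 and 469 in tetraploids, against 205 and 202 in diploids, with diploid arrays that nearly coincided. It rose by 1.31 ± 0.15 (SE; adjusted p = 0.000742), also without any single array. AT1G25550, a MYB-like factor of the GARP type, averaged 379 ± 22.5 in tetraploids and 206 ± 13.3 in diploids (SD, n = 3 and 2) and rose by 0.88 ± 0.13 (adjusted p = 0.00398). AT5G47390, known as KUA1 or MYBH, is a MYB-like factor that promotes the expansion of leaf cells. Its mean signal was 232 ± 14.8 in tetraploids and 136 ± 8.28 in diploids, a rise of 0.77 ± 0.14 (adjusted p = 0.0189) that was called in 11 of the 17 other settings. The group was completed by AT1G19330, associated with a histone deacetylase complex, and AT4G14270, with a PAM2 motif that binds poly(A)-binding protein, which rose by 1.01 and 0.72 and were called in 11 and 13 settings.

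Several genes known to respond fast to stress, wounding or touch in Arabidopsis rose. PUB19, a U-box E3 ubiquitin ligase of drought and abscisic acid signalling, had 343, 174 and 229 in tetraploids, against 44.4 and 38.2 in diploids. The lowest tetraploid signal stood well above the higher diploid one, and the rise was 2.54 ± 0.36 (SE; adjusted p = 0.00298). Without diploid replicate 2 the call was lost (2.43, adjusted p = 0.0614).

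AT4G29780, a gene of the HARBI1-like nuclease family derived from transposases, had 85.7, 87.6 and 73.4 in tetraploids, against 26.9 and 17.0 in diploids. It rose by 1.94 ± 0.31 (SE; adjusted p = 0.00705), though not without diploid replicate 2 (1.61, adjusted p = 0.15). AR781 had 85.5, 103 and 126 in tetraploids and 34.2 and 33.3 in diploids. Its rise was 1.62 ± 0.23 (adjusted p = 0.00301), and without diploid replicate 2 the adjusted p was 0.0521.

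SIS, named for its induction by salt and its serine-rich product, had 73.5, 52.3 and 89.8 in tetraploids and 13.7 and 14.3 in diploids. Both diploid arrays were below their percentile 40, so the rise of 2.33 ± 0.40 (SE; adjusted p = 0.00972) is uncertain in size. The call held in 11 of the 17 other settings and was lost without tetraploid replicate 1 or 3 or either diploid array. Smaller rises were measured for AT4G05070 of a wound-responsive family (1.08), AT3G10020, a hypoxia-responsive gene of unknown function (1.03), ZW9, a TRAF-like protein (0.96), and AT3G53990, a universal stress protein (0.64). Their calls held in 13, 12, 16 and 10 of the 17 other settings. AT4G21870, which encodes a small protein of the HSP20 chaperone type, went the other way. It had 29.9, 33.6 and 26.7 in tetraploids, against 75.1 and 99.5 in diploids, and fell by 1.53 ± 0.26 on the log2 scale (adjusted p = 0.00904). That call was lost without tetraploid replicate 3 (adjusted p = 0.052) or either diploid array (adjusted p = 0.0591 and 0.223).

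The list of early stress and touch response genes held 34 loci, of which 8 were measured under a gene name. This list, like the others below, was written with earlier results of these data known, so its counts are a description. PUB19, AT4G29780 and AR781 were called higher and none was called lower. Over all 8053 genes, 37 were called higher and 9 lower. Of the 8, 5 were higher with a median of 0.96, beside 4112 of 8053 higher and a median of 0.007 over all genes. STZ, a zinc-finger repressor of stress responses, had 208, 138 and 111 in tetraploids and 70.4 and 34.6 in diploids. Its groups did not overlap, as in 29.7% of all probe sets kept, but its difference of 1.58 ± 0.36 missed the threshold (adjusted p = 0.0635). None of the remaining members was called. PUB22, PUB23 and PUB24, U-box ligases that dampen immune signalling, had differences of -0.05, 0.33 and -0.12, and CML38, a calmodulin-like protein, had -0.10 (all adjusted p above 0.85). The median of 0.96 fell in the gap between STZ at 1.58 and PUB23 at 0.33. Of 8 measured genes with the symbol PUB, PUB19 was the only one called.

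Genes of darkness, dormancy and light formed a further group. AT3G15450, of a family named for induction by aluminium, is known to be raised in darkness and sugar starvation. It had 531, 483 and 803 in tetraploids, against 140.0 and 162 in diploids, and every tetraploid array was far above both diploid arrays. It rose by 1.97 ± 0.20 (SE; adjusted p = 0.000212) and kept its call in all 17 other settings. AT1G56220, a dormancy and auxin associated gene, averaged 674 ± 90.4 in tetraploids and 411 ± 6.80 in diploids, a rise of 0.70 ± 0.14 (adjusted p = 0.0266). CCL, a clock-regulated transcript whose mRNA is unstable, was bright in both groups, with 1669 ± 75.3 in tetraploids and 1086 ± 73.3 in diploids, and rose by 0.62 ± 0.11 (adjusted p = 0.0155). AT1G56220 was called in 9 and CCL in 11 of the 17 other settings.

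AT3G44450, known as BIC2, encodes an inhibitor of the blue-light receptors called cryptochromes. It had 187, 267 and 204 in tetraploids, against 482 and 485 in diploids. The diploid arrays nearly coincided, and the gene fell by 1.16 ± 0.19 on the log2 scale (adjusted p = 0.00891). The call held in 12 of the 17 other settings. It was lost without tetraploid replicate 1 or 3 (adjusted p = 0.0515 and 0.0555) or without either diploid array. Of the 5 measured genes in a list of sugar starvation and darkness, AT3G15450 was the single call, 4 were higher, and the median was 0.50. This median was 0.011 without diploid replicate 1. Over all genes, 4112 of 8053 were higher, 37 were called higher and 9 lower. AT3G61260 and AKINBETA1, a subunit of the energy-sensing SnRK1 kinase, had differences of 0.09 and 0.50, neither past the threshold (adjusted p = 0.962 and 0.711).

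The DUF506 and S40-like families came to notice only because several of their members were called, so their counts are a description. DUF506 proteins carry a domain of unknown function, and S40-like genes are named after a senescence-associated gene of barley. In DUF506, 3 of 6 measured members were called higher and 1 lower, with a median of 0.78. Of all probe sets with 1 gene, 0.453% were called higher and 0.11% lower. AT2G20670 had 380.2, 378 and 449 in tetraploids, against 94.7 and 130.4 in diploids, a rise of 1.85 ± 0.34 (SE; adjusted p = 0.0155). The groups were far apart, yet the call held in only 8 of the 17 other settings. It was lost without tetraploid replicate 1 or 3 or either diploid array. With the actin ratio in the fit the value of AT2G20670 was 0.89 (adjusted p = 0.0985).

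AT3G07350 of the same family had 279, 329 and 418 in tetraploids and 103 and 126 in diploids, and rose by 1.57 ± 0.18 (SE; adjusted p = 0.000599) in every setting. AT2G38820 averaged 142 ± 4.45 in tetraploids and 65.4 ± 3.77 in diploids and rose by 1.11 ± 0.16 (adjusted p = 0.00398). That call held in 15 of the 17 other settings. AT1G12030 differed in direction from these. It had 26.0, 31.7 and 39.5 in tetraploids, against 76.0 and 74.4 in diploids, and fell by 1.24 ± 0.26 on the log2 scale (adjusted p = 0.0418). One of its tetraploid signals was below the percentile 40 of its array, and the call held in 6 of the 17 other settings. It was lost without any one of the 5 arrays.

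Among 7 measured S40-like genes, 2 were called higher and 1 lower, with a median of 0.82, beside the same 0.453% and 0.11% of all probe sets with 1 gene. AT5G60680 had 697, 630.3 and 699 in tetraploids, against 194 and 253 in diploids. The tetraploid arrays were close to each other, and the rise of 1.61 ± 0.15 (SE; adjusted p = 0.000109) held in every setting. AT5G03230 averaged 469 ± 73.1 in tetraploids and 205 ± 74.4 in diploids and rose by 1.23 ± 0.19 (adjusted p = 0.00622). That call held in 14 of the 17 other settings. AT1G11700 had 28.8, 30.9 and 43.3 in tetraploids, against 112 and 73.1 in diploids, and fell by 1.42 ± 0.28 on the log2 scale (adjusted p = 0.0222). Its call held in 10 of the 17 other settings and was lost without tetraploid replicate 1 or 2 or either diploid array.

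**Figure D2:**
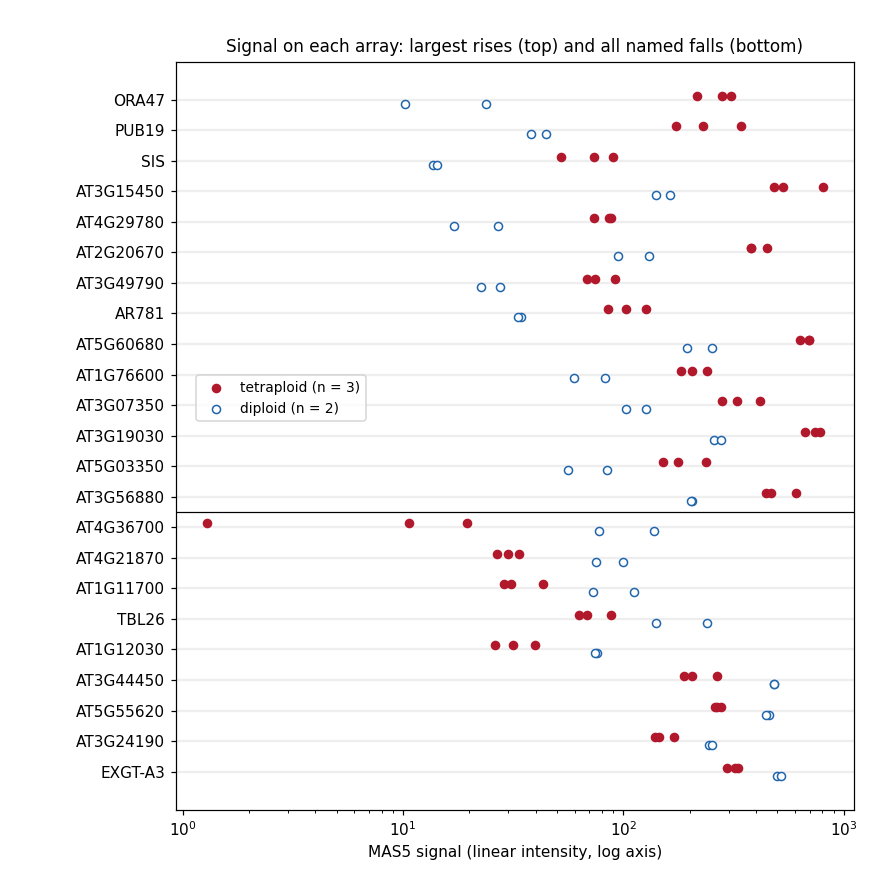
Signal of each array (horizontal log axis, MAS5 intensity) for the 14 named genes with the largest rises (above the line) and the 9 that fell (below it), with tetraploid arrays as filled red points and diploid arrays as open blue points. No gene shows an overlap of the groups, as in 29.7% of all probe sets kept. AT4G36700 has 1 tetraploid array at 1.29, under the floor of 2.28.

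Cell wall genes did not share a direction. TBL26, of the trichome birefringence-like family whose members acetylate wall polysaccharides, had 68.5, 87.4 and 62.6 in tetraploids, against 140.0 and 240.2 in diploids. The diploid arrays were apart from each other, and the fall was 1.35 ± 0.22 on the log2 scale (SE; adjusted p = 0.00754). TBL26 was called in 14 of the 17 other settings, and its value without diploid replicate 2 was -0.96. Of 15 measured genes named TBL, it was the only one called, with 7 of 15 higher and a median of -0.02. Of all 8053 genes, 4112 were higher, 37 were called higher and 9 lower.

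EXGT-A3, a xyloglucan endotransglucosylase that cuts and rejoins wall xyloglucan, had 323, 332 and 296 in tetraploids, against 498 and 517 in diploids. The replicates were tight, and the fall was 0.68 ± 0.13 on the log2 scale (SE; adjusted p = 0.0263). Its call held in 10 of the 17 other settings and was lost without any one of the 5 arrays. AT3G52060, of the core-2/I-branching glycosyltransferase family, averaged 280.2 ± 13 in tetraploids and 161 ± 24.6 in diploids and rose by 0.81 ± 0.15 (adjusted p = 0.0209), called in 10 of 17 settings.

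The list of expansins and wall-loosening genes had 16 of 44 loci measured, with 10 higher, a median of 0.35 and EXGT-A3 as its only call. All 6 measured alpha-expansins, proteins that loosen the wall as cells grow, were higher (median 0.45) and none was called. EXPA4, the brightest, had 554, 415 and 504 in tetraploids and 403 and 378 in diploids, a difference of 0.32 ± 0.14 (adjusted p = 0.523). EXPB3, a beta-expansin, had 0.55 ± 0.13 (adjusted p = 0.0681). Of 6 genes named XTH, from the family of EXGT-A3, 1 was higher, with a median of -0.28 and no call. Beside these counts, 4112 of all 8053 genes were higher, 37 were called higher and 9 lower.

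Genes of metabolism and transport included the dimmest fall. AT4G36700 encodes a cupin, of the fold shared with seed storage globulins. It had 19.4, 10.7 and 1.29 in tetraploids, against 137 and 77.4 in diploids. All 3 tetraploid signals and every triploid signal lay in the lowest 40% of their array, so AT4G36700 was kept only through the 2 diploid arrays. Its adjusted p follows that selection and is no separate support. The dimmest tetraploid signal was raised to the floor, and the log2 difference of -3.73 ± 0.78 (SE; adjusted p = 0.0362) has no exact size. It ranged from -4.38 to -2.24 across settings, and the call held in 7 of the 17 others. The call was lost without tetraploid replicate 2 or 3 or either diploid array.

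AT3G24190, an ABC1-like kinase, had 145, 169.6 and 139.7 in tetraploids and 245 and 254 in diploids. It fell by 0.72 ± 0.16 on the log2 scale (adjusted p = 0.0467), close to the threshold. The call held in 7 of the 17 other settings and was lost without any one of the 5 arrays. AT5G03350, a protein of the legume lectin type, had 177, 151 and 238 in tetraploids and 84.6 and 55.7 in diploids. It rose by 1.43 ± 0.26 (SE; adjusted p = 0.0155) and was called in 11 of the 17 other settings. The call was lost without tetraploid replicate 1 or 3 (adjusted p = 0.0568 and 0.0972) or diploid replicate 2 (value 1.13).

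AT4G17470, of the palmitoyl-protein thioesterase type, averaged 224 ± 9.53 in tetraploids and 105 ± 2.23 in diploids. It rose by 1.10 ± 0.15 (adjusted p = 0.00207) and was called in every setting. The amino acid transporter gene AT2G41190 rose by 1.27, the lipid transfer protein gene AT4G33550 by 0.89, the HAD-type hydrolase gene AT2G32150 by 0.79, and AT1G73480 of the monoacylglycerol lipase family by 0.76. They were called in 8, 11, 10 and 15 of the 17 other settings.

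The other named genes have little or no assigned function. AT1G76600, of the PADRE-domain family, whose members respond to pathogens and abiotic stress, had 238, 204 and 183 in tetraploids, against 59.4 and 82.2 in diploids. It rose by 1.57 ± 0.24 (SE; adjusted p = 0.00527). The call held in 14 of the 17 other settings and was lost without diploid replicate 1 (value 1.33). AT3G19030 had 668, 743 and 778 in tetraploids, against 256 and 278 in diploids, and rose by 1.45 ± 0.13 (adjusted p = 8.17e-05) in every setting.

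AT3G49790 had 74.3, 68.2 and 91.8 in tetraploids and 27.5 and 22.6 in diploids. It rose by 1.63 ± 0.31 (adjusted p = 0.0184). The call held in 9 of the 17 other settings and was lost without tetraploid replicate 1 or 3 or either diploid array. AT5G55620 had 260.0, 278 and 267 in tetraploids, against 456 and 442 in diploids. The spread within both groups was small, and it fell by 0.74 ± 0.12 on the log2 scale (adjusted p = 0.00617). The call held in 14 of the 17 other settings and was lost without diploid replicate 1 or 2. Rises of 1.24 for AT2G25200, a DUF868 gene, 1.08 for AT2G27830, 0.90 for AT5G56100, 0.78 for AT5G25280, a serine-rich protein, and 0.68 for AT1G49500 completed the 46. These 5 were called in 5, 14, 6, 8 and 11 of the 17 other settings, and with the actin ratio in the fit the value of AT5G25280 was 0.38 (adjusted p = 0.181).

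Probe sets without a single gene name made up 79 of the 125 calls, and among those with none, 51 were higher (0.770% of 6621) and 26 lower (0.393%). Their functions are not described here, because the annotation used pairs them with no gene. The largest rise was that of 256300_at, with 105, 65.4 and 95.3 in tetraploids and 11.8 and 9.20 in diploids (3.06 ± 0.57, adjusted p = 0.0182). Both diploid signals were dim, and the size is uncertain. The probe set 252367_at had 315, 215 and 297 in tetraploids and 27.6 and 41.6 in diploids (3.01 ± 0.34, adjusted p = 0.000669), and was called in every setting. Next came 248448_at, 249065_at and 253872_at, with log2 differences of 2.65, 2.45 and 2.38. Both diploid signals of 248448_at and 249065_at were below the percentile 40 of their arrays, so these sizes and their order are uncertain. The difference of 248448_at ran from 1.40 to 3.41 over the other settings, and it was called in 9 of 17, as was 256300_at.

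The largest falls were those of 251677_at (-2.02), 264751_at (-1.71), 267260_at (-1.37), 260427_at (-1.30) and 249037_at (-1.20). All 3 tetraploid signals of 267260_at and 1 of 251677_at were below that percentile, which leaves their sizes uncertain, and both were called in 9 of 17 settings. The probe set 264751_at had 104, 93.7 and 55.6 in tetraploids, against 281 and 252 in diploids. The probe set 260427_at had 141, 161 and 156 in tetraploids, against 363 and 389 in diploids. Both kept their call in all 17 other settings.

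Each of 2 called probe sets was annotated to 2 genes of one family, and their signals cannot be divided between them. The first, 264214_s_at, belongs to a pair of genes of the MADS-box transcription factor type. It had 179, 217 and 225 in tetraploids, against 69.5 and 92.4 in diploids, and rose by 1.36 ± 0.17 (adjusted p = 0.0015) in every setting. The second, 260130_s_at, belongs to a pair of beta-glucosidase genes and had 1010, 984 and 1012 in tetraploids, against 604 and 658 in diploids. It rose by 0.67 ± 0.13 (adjusted p = 0.0292), but was called in 9 of 17 settings, with values down to 0.41.

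Other pathways were described with gene lists, in which few loci are named on this annotation: 98 of 778 were measured. Beside every list here and below, 4112 of all 8053 genes were higher, 37 were called higher and 9 lower. Of 4 measured genes of abscisic acid and drought response, all 4 were higher and none was called, with a median of 0.42. COR15A, which protects chloroplast membranes in cold and drought, had 301, 301 and 347 in tetraploids and 157 and 164 in diploids (0.98 ± 0.22, adjusted p = 0.0558). Its groups did not overlap, as in 29.7% of all probe sets kept, and it missed the threshold narrowly. All 5 flavonoid and anthocyanin genes measured were lower (median -0.30) and none was called, with DFR, dihydroflavonol reductase, at -0.32 ± 0.24 (adjusted p = 0.838).

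Of 9 nuclear photosynthesis genes, 5 were higher and none was called. Their median was 0.03, which ran from -0.13 to 0.21 with 1 array left out and was -0.025 after quantile normalization. LHCB4.3, an antenna protein of photosystem II, had 296, 366 and 314 in tetraploids and 497 and 576 in diploids (-0.72 ± 0.16, adjusted p = 0.052). Cell cycle and replication genes, of interest where the genome is doubled, had 2 of 6 higher, no call and a median of -0.03, which ran from -0.11 to 0.043 with 1 array left out. The brightest of them, SIM, an inhibitor of cyclin-dependent kinases that promotes endoreduplication, had a difference of 0.12 ± 0.21 (adjusted p = 0.965). With 2 diploid arrays such intervals are wide, and small changes were not detectable. Transcripts of the plastid genome had 44 of 69 higher, none called and a median of 0.12, which was -0.063 without diploid replicate 1 and 0.26 without diploid replicate 2.

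**Figure D3:**
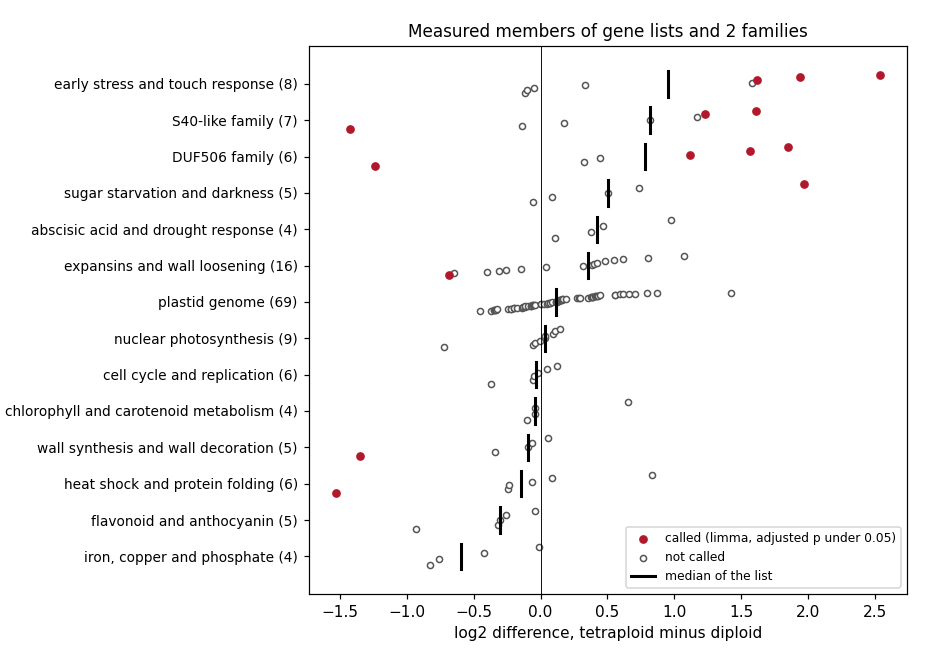
Log2 difference of tetraploids minus diploids (horizontal axis) for each measured member of the lists with at least 4 members and of 2 families chosen after the calls were seen, with the number measured in parentheses. Filled points are called, open points are not, and black bars are medians, from 0.96 for early stress and touch response to -0.59 for iron, copper and phosphate.

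Markers of organs were checked, since whole plants were sampled. All 4 measured root markers of 7 were higher in tetraploids and none was called, beside 4112 of 8053 higher over all genes. Their summed signal was 3763 to 4139 in tetraploids against 3067 and 3528 in diploids, and most of it came from PYK10. This marker had 3640, 3423 and 3137 in tetraploids and 2666 and 3211 in diploids, so its groups overlapped (0.21 ± 0.14, adjusted p = 0.768). PRX44, a root hair peroxidase, had 360, 393 and 486 in tetraploids and 295 and 236 in diploids (0.64 ± 0.15, adjusted p = 0.0676), and EXPA7, a root hair expansin, had a difference of 0.61 ± 0.52 (adjusted p = 0.87). RCA, rubisco activase, the single leaf marker of 5 measured, had 4959, 4743 and 5328 in tetraploids and 4236 and 6368 in diploids (-0.05 ± 0.16, adjusted p = 0.984). FAMA, a guard cell factor, had 0.45 ± 0.37 (adjusted p = 0.866). Markers of phloem, xylem, epidermis, seed and flower had no named probe set, and CLV3 of the shoot meristem and a pollen marker were too dim to be kept. Whether the root share differed, and any part of it in the called rises or the alpha-expansins, was not tested.

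No chromosome was shifted as a whole against the others. Deviations from the diploid mean were taken relative to the median deviation of all genes on the same array. On that scale, the median log2 deviation of the genes on each of the 5 chromosomes lay between -0.036 and 0.034 on every tetraploid array. For scale, 5 copies over 4 would be 0.32 and 3 over 4 would be -0.42, if signal followed copy number. The named calls numbered 11, 8, 11, 8 and 8 on chromosomes 1 to 5, which is 0.521%, 0.669%, 0.673%, 0.677% and 0.412% of the probe sets measured there.

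**Figure D4:**
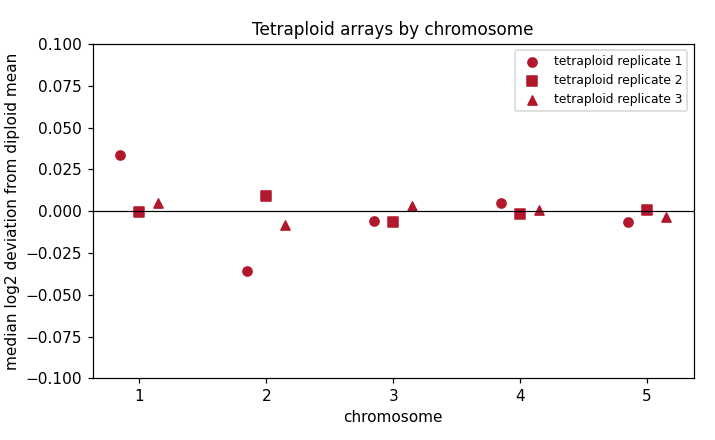
Median log2 deviation of each tetraploid array from the diploid mean (vertical axis) over the genes of each chromosome (horizontal axis). The median deviation over the genes of all chromosomes was first subtracted for each array. The symbols stand for the 3 replicates, and the widest value is -0.036, on chromosome 2 in replicate 1.

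The triploid arrays show where seedlings with 3 chromosome sets stood for the same genes. The genes were chosen on the tetraploid and diploid arrays, and differences of both triploids are taken from the same 2 diploid arrays, so these levels are a description. For the 37 named genes that rose, the median difference from diploids was 0.39 in triploid TFE, 0.78 in triploid TME and 1.10 in tetraploids. For the 9 that fell it was -0.94 in triploid TFE, -0.74 in triploid TME and -1.24 in tetraploids. The actin 3′ to 5′ ratio was 0.559, 0.581 and 0.920 in triploid TFE and 0.539, 0.466 and 0.407 in triploid TME. In tetraploids the ratio was 0.308 to 0.403, against 0.506 and 0.524 in diploids. It thus also differed between the groups, and its part in these levels was not tested.

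ORA47 had 39.8, 99.2 and 52.5 in triploid TFE and 191, 188 and 161 in triploid TME, so that the triploid groups did not overlap each other. PUB19 had 39.2, 80.9 and 31.2 in triploid TFE, a range that holds both diploid values, and 107, 84.6 and 141 in triploid TME. AT3G15450 had 208, 279.9 and 236 in triploid TFE and 284, 372 and 338 in triploid TME. For each of these 3 genes, all TME arrays lay above both diploid arrays and below every tetraploid array.

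Other genes were spread differently over the groups. AT4G29780 had 30.3, 28.7 and 47.3 in triploid TFE and 81.4, 93.5 and 51.4 in triploid TME, where the highest array exceeded every tetraploid array. EXGT-A3 had 306, 266 and 223 in triploid TFE and 330.3, 316 and 342 in triploid TME, all 6 below both diploid arrays. AT1G11700 had 83.6, 49.2 and 61.9 in triploid TFE and 90.7, 73.6 and 97.1 in triploid TME, the last 3 within the range of the diploids. Triploid TFE replicate 3 stood apart from the other arrays over all probe sets. It enters the tests of tetraploids against diploids only through the shared spread, and without it 253 probe sets were called. The TFE medians above and the TFE means in the plot of group means include this array directly. Its actin ratio was 0.920, and 0.998% of its signals were at the floor, against 11.6% and 9.80% in TFE replicates 1 and 2. No TFE median is given without it, so its part in the gap between TFE and TME was not tested.

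**Figure D5:**
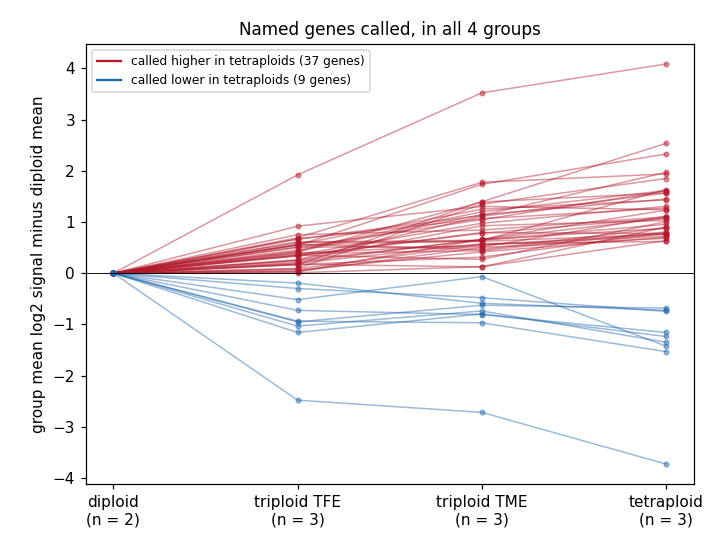
Group mean log2 signal minus the diploid mean (vertical axis) for the 46 named genes called, in diploids, triploids TFE and TME and tetraploids. Red lines are the 37 genes called higher and blue lines the 9 called lower in tetraploids, lines only join the group means of a gene, and all differences share the 2 diploid arrays.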

How the data were processed

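RNA of whole C24 seedlings was measured on 11 arrays, of which 3 tetraploid and 2 diploid arrays were compared. The values are the authors' deposited linear intensity signals, 1 per probe set, for which the submitters' processing notes name MAS5 without a version. Each array's trimmed mean signal was 100.01. The number of arrays limits the precision.

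Of 22810 probe sets, 64 controls were set aside. A floor of 2.28, percentile 10 of the pooled plant signals, was applied before log2. To be kept, a probe set had to exceed percentile 40 of its array on 2 or more of the 11 arrays, which 15075 (66.3%) did. Group means over all 11 arrays were fitted with limma 3.58.1 in R 4.3.3, with moderated variances and an intensity trend, the source of every adjusted p-value printed except those given for another setting or without an array, which come from the limma fit of that setting. The fit was tested on simulated data. Genes were named with GEO's platform annotation and a RefSeq gene table: 8161 of the probe sets kept had 1 gene, 293 several and 6621 none. Gene lists took 1 probe set per gene, the brightest.

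Array values are given for the 14 largest named rises and all 9 named falls, fewer than the 10 allowed for. Further genes were named if called or among the 3 brightest of their list, and a few near the threshold were singled out after their values were seen. Members, groups and lists were chosen with earlier results of these data known. Other settings, 17 in all, changed the filter, the floor, the normalization, the variances, the arrays, the replicate number as a block and 2 technical covariates. The replicate numbers did not pair the samples: deviations from group means correlated with r = 0.093 and -0.096 for the 2 shared numbers. Promoter motifs and sequences were not analysed here.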

Additional observations from a re-analysis of the deposited data

How the results depend on the processing

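No named gene changed direction in any of the 17 other settings, but for most settings this was fixed in advance. The groups did not overlap in any called probe set, so leaving out 1 array could not reverse a difference. Changes of the filter, the intensity trend, robust variances or the triploid arrays used leave the difference of group means as it is. The 125 calls (90 higher, 35 lower) became 271 (193, 78) with array weights, 198 (144, 54) with only the 5 arrays compared, and 253 (182, 71) without triploid TFE replicate 3. They became 86 (56, 30) with the actin ratio in the fit, 42 (35, 7) without the intensity trend and 78 (61, 17) without the filter. Leaving out 1 tetraploid or diploid array gave 29 to 100 calls, 23 to 74 higher and 6 to 26 lower. A diploid array left out leaves a lone one, assumed to vary like the other groups. With the replicate number as a block, which does not pair these samples, 103 were called, 82 higher and 21 lower, and 39 of the 46 named genes remained called. The causes were not tested.

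Called in all 17 settings were 17 probe sets, 7 of them named: ORA47, AT3G15450, AT5G60680, AT3G07350, AT3G19030, AT3G56880 and AT4G17470.

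With 1 array left out in turn, list medians ran from 0.011 to 0.57 for sugar starvation, 0.35 to 0.47 for abscisic acid, 0.20 to 0.37 for wall loosening, -0.33 to -0.053 for wall synthesis, -0.43 to -0.12 for flavonoids, -0.13 to 0.21 for photosynthesis, -0.11 to 0.043 for the cell cycle, -0.069 to 0.021 for chlorophyll and carotenoids, -0.063 to 0.26 for the plastid genome and -0.74 to -0.43 for iron, copper and phosphate. Quantile normalization kept the sign of 11 of the 12 medians of lists with at least 4 measured members, all except photosynthesis (-0.025), and without the filter the median of chromosome 5 was 0.0012. Dim signal limits the size of differences: 10 of the 90 had a diploid array, and 6 of the 35 a tetraploid array, below its percentile 40.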

Other observations

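Genes just outside the threshold were mostly higher in tetraploids. They come from the same arrays and fit as the calls, so they are no separate support for the direction of the calls. Of 38 named probe sets with an adjusted p from 0.05 to under 0.10 (limma), 29 were higher and 9 lower. Over all probe sets kept with 1 gene, 51.3% were higher. Those named here were chosen after their values were seen. XERICO, a RING-type gene that raises abscisic acid, had a difference of 0.68 ± 0.15 (SE, adjusted p = 0.0559). HIS1-3, a linker histone induced by drought, had 0.87 ± 0.21 (adjusted p = 0.0859), and PORB, a protochlorophyllide reductase of chlorophyll synthesis, had 0.65 ± 0.15 (adjusted p = 0.0633). BGLU44, a beta-glucosidase, had 898, 926 and 1140 in tetraploids and 618 and 713 in diploids (0.57 ± 0.12, adjusted p = 0.0504). EXO, a brassinosteroid-responsive gene of cell expansion, had a difference of -0.78 ± 0.19 (adjusted p = 0.0767).

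Genes of the list of iron, copper and phosphate were lower without passing the test. Only 4 of its 32 loci were measured. All 4 were lower, from -0.83 to -0.01 with a median of -0.59, beside 3941 of 8053 lower over all genes. AT1G47400, a gene of the iron-deficiency response, had 165, 157 and 161 in tetraploids and 320 and 254 in diploids (-0.83 ± 0.29, adjusted p = 0.36). CCS, the copper chaperone of superoxide dismutase, had a difference of -0.76 ± 0.27 (adjusted p = 0.358). Of 14 measured genes with the symbol CYP, mostly cytochromes P450 of the CYP71B group, 2 were higher, with a median of -0.27 and no call. The brightest, CYP71B6, had a difference of -0.20 ± 0.15 (adjusted p = 0.838).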
